A study of Homo sapiens with 12 samples.

Results

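The genes described here are the nuclear genes for the subunits of the mitochondrial respiratory chain and the ATP synthase. They were chosen by name alone from the rows of a table of gene counts: NDUFA, NDUFB, NDUFC, NDUFS and NDUFV genes with NDUFAB1, SDHA to SDHD, CYC1, the UQCR genes, the COX4 to COX8 subunits and the ATP5 genes. Pseudogenes, antisense transcripts, read-through transcripts and assembly factors were left out. The rule gave 86 genes of the 51141 in the table, of which 38 were placed by name in complex I, 4 in complex II, 10 in complex III, 17 in complex IV (cytochrome c oxidase) and 17 in complex V (ATP synthase). NDUFA4, now assigned to complex IV, is counted with complex I throughout because of its name. Counts were high enough for testing in 79 of the 86 genes, comprising 38 genes of complex I, 4 of complex II, 10 of complex III, 11 of complex IV and 16 of complex V. The ATP synthase genes carry their older symbols in the table, so ATP5B is the current ATP5F1B, ATP5D is ATP5F1D, ATP5I is ATP5ME and ATP5S is DMAC2L.

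Complexes I and II pass electrons from NADH and succinate to ubiquinone, complex III passes them to cytochrome c, and complex IV passes them to oxygen. The proton gradient that complexes I, III and IV build drives the ATP synthase. Most subunits are encoded in the nucleus and assembled with a few made from mitochondrial DNA, while all subunits of complex II are nuclear. Complex IV holds copper in its catalytic core, delivered by dedicated chaperones such as COX17. Endothelial cells make much of their ATP by glycolysis, and low oxygen acts on the chain in many cells through the hypoxia-inducible factors, which are known to exchange or lower some of its subunits.

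RNA was measured by poly(A) RNA sequencing in EA.hy926 cells, a permanent hybrid line made from umbilical vein endothelial cells and a lung carcinoma line. The TEPA+hypoxia group received the copper chelator TEPA at 50 µM for 16 h and was then kept for 8 h in 1% oxygen. The TEPA group received the same chelator and stayed at normal oxygen for the last 8 h, the hypoxia group was kept for 8 h in 1% oxygen without the chelator, and the control group had neither. Each group held 3 libraries, and the labels do not say whether these came from separate cultures, so the p-values reflect the spread between libraries and no more.

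Library totals ran from 13406858 to 24778944 counts. Hypoxia 2 and hypoxia 3 lay far from the rest. On the first principal component of log2 expression, which held 74.8% of the variance, they lay at 132 and 109.8, against 11.8 for hypoxia 1 and between -53.0 and -9.84 for the rest. Their scaling factors by the trimmed mean of M values (TMM) were 0.772 and 0.838, against 1.03 to 1.08 in the other libraries. Hypoxia 1 is therefore given apart from hypoxia 2 and 3, and the tests of the hypoxia group are given with all 3 libraries and with hypoxia 1 alone. With hypoxia 1 alone, that single library is assumed to vary like the libraries of the other groups. Endothelial markers were present in every library (CDH5 at 274 to 773 CPM, PECAM1 at 431 to 675 CPM), but CLDN5 and EMCN had no counts, and the epithelial keratins KRT7, KRT8 and KRT18 were high. CPM are counts scaled to a common library total with TMM.

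Binding sites for the factor NRF1 and for the ETS factor GABP are often described in promoters of this pathway. The 250 bases before the start were available from RefSeq (GRCh38.p14) for 64 of the 79 tested genes. The NRF1 letters, GCGCA and then GCGC with 1 base of any kind between them, occurred on either strand in 13 of the 64 (20.3%), against 1212 of 15843 protein-coding promoters (7.65%). The ETS letters CCGGAAG occurred on either strand in 16 of the 64 (25%), against 1869 of all (11.8%). The letters GGGCGG, bound by SP1, occurred in 35 (54.7%), against 8872 of all (56.0%), and CCAAT in 19 (29.7%), against 5460 of all (34.5%). AAGATGGC, bound by YY1, was found in 1 gene (1.56%), against 220 of all (1.39%). A match is a description of letters and was not tested as a binding site. Stretches from 3 promoters are shown because they hold such matches and belong to genes whose values are given below: NDUFB4 with a pair of NRF1 matches (chr3:120596086-120596308, plus strand), NDUFB7 with 1 ETS match (chr19:14572067-14572316, minus strand) and COX5B with 1 ETS match (chr2:97645812-97646039, plus strand). They are written 5′ to 3′ in the sense of the gene and end before its first annotated exon. Capitals mark the NRF1 and ETS letters only. The SP1 letters, which NDUFB7 and COX5B also hold, are left in lower case.
NDUFB4: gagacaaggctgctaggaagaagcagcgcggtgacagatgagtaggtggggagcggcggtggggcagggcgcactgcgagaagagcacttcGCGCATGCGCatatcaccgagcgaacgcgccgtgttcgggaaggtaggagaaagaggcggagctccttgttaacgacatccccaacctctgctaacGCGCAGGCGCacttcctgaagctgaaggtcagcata
NDUFB7: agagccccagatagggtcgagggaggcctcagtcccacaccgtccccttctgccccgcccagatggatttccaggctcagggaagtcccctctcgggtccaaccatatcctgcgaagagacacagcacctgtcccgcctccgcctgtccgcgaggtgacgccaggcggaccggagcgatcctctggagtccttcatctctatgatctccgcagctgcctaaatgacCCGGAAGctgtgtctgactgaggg
COX5B: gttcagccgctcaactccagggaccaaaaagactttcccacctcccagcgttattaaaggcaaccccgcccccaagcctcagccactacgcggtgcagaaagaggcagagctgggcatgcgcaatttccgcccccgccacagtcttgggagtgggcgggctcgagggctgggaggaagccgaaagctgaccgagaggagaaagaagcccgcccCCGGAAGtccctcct

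At the level of transcripts per length, the genes spanned a wide range. In reads per kilobase of transcript, scaled like CPM (mean ± SD, n = 3), ATP5B, the catalytic beta subunit of the ATP synthase, had 439 ± 11.5 in control, COX4I1, the main isoform of complex IV subunit 4, had 413 ± 44.3, COX6A1 of complex IV had 247 ± 31.6, and SDHA, the flavoprotein of complex II, had 178 ± 8.21. At the low end of the tested genes were UQCRHL at 0.352 ± 0.0789, a near copy of UQCRH whose reads may be shared with it, and ATP5S at 5.94 ± 0.669, which encodes coupling factor B and not a core subunit. Most of the 7 genes that were not tested are isoforms known mainly from other tissues. COX4I2, the isoform of subunit 4 described in lung and induced by low oxygen in other cells, COX6A2 and COX7A1, the heart and muscle isoforms, and COX7B2 were listed at 0 in all 12 libraries. COX6B2 had 5 counts in all, COX8C had 6, of which 5 were in hypoxia 3, and ATP5L2 had 2.

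Across the 12 libraries, most nuclear respiratory chain genes moved together. They were lowest in the TEPA+hypoxia libraries, near the control level with TEPA alone, moderately above it in hypoxia 1 and far above it in hypoxia 2 and 3. The sum of all 86 genes was 6468, 6356 and 5366 in TEPA+hypoxia, 7039, 7333 and 6962 in TEPA, 8509 in hypoxia 1, 18129 and 14981 in hypoxia 2 and 3, and 7117, 6565 and 7734 in control, in CPM. Only the hypoxia libraries lay above the control range, and all 3 TEPA+hypoxia sums lay below every other sum. The median over the 79 genes of the log2 ratio to the control mean was -0.15, -0.18 and -0.44 in TEPA+hypoxia, 0.03, 0.06 and -0.04 in TEPA, 0.33 in hypoxia 1, 1.46 and 1.15 in hypoxia 2 and 3, and -0.02, -0.14 and 0.15 in control. On the same scale the median over all 14447 genes tested ran from -0.04 to 0.01 across the libraries. In these bulk libraries, a change in the cell mix and a change in RNA per cell cannot be told apart.

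**Figure D1:**
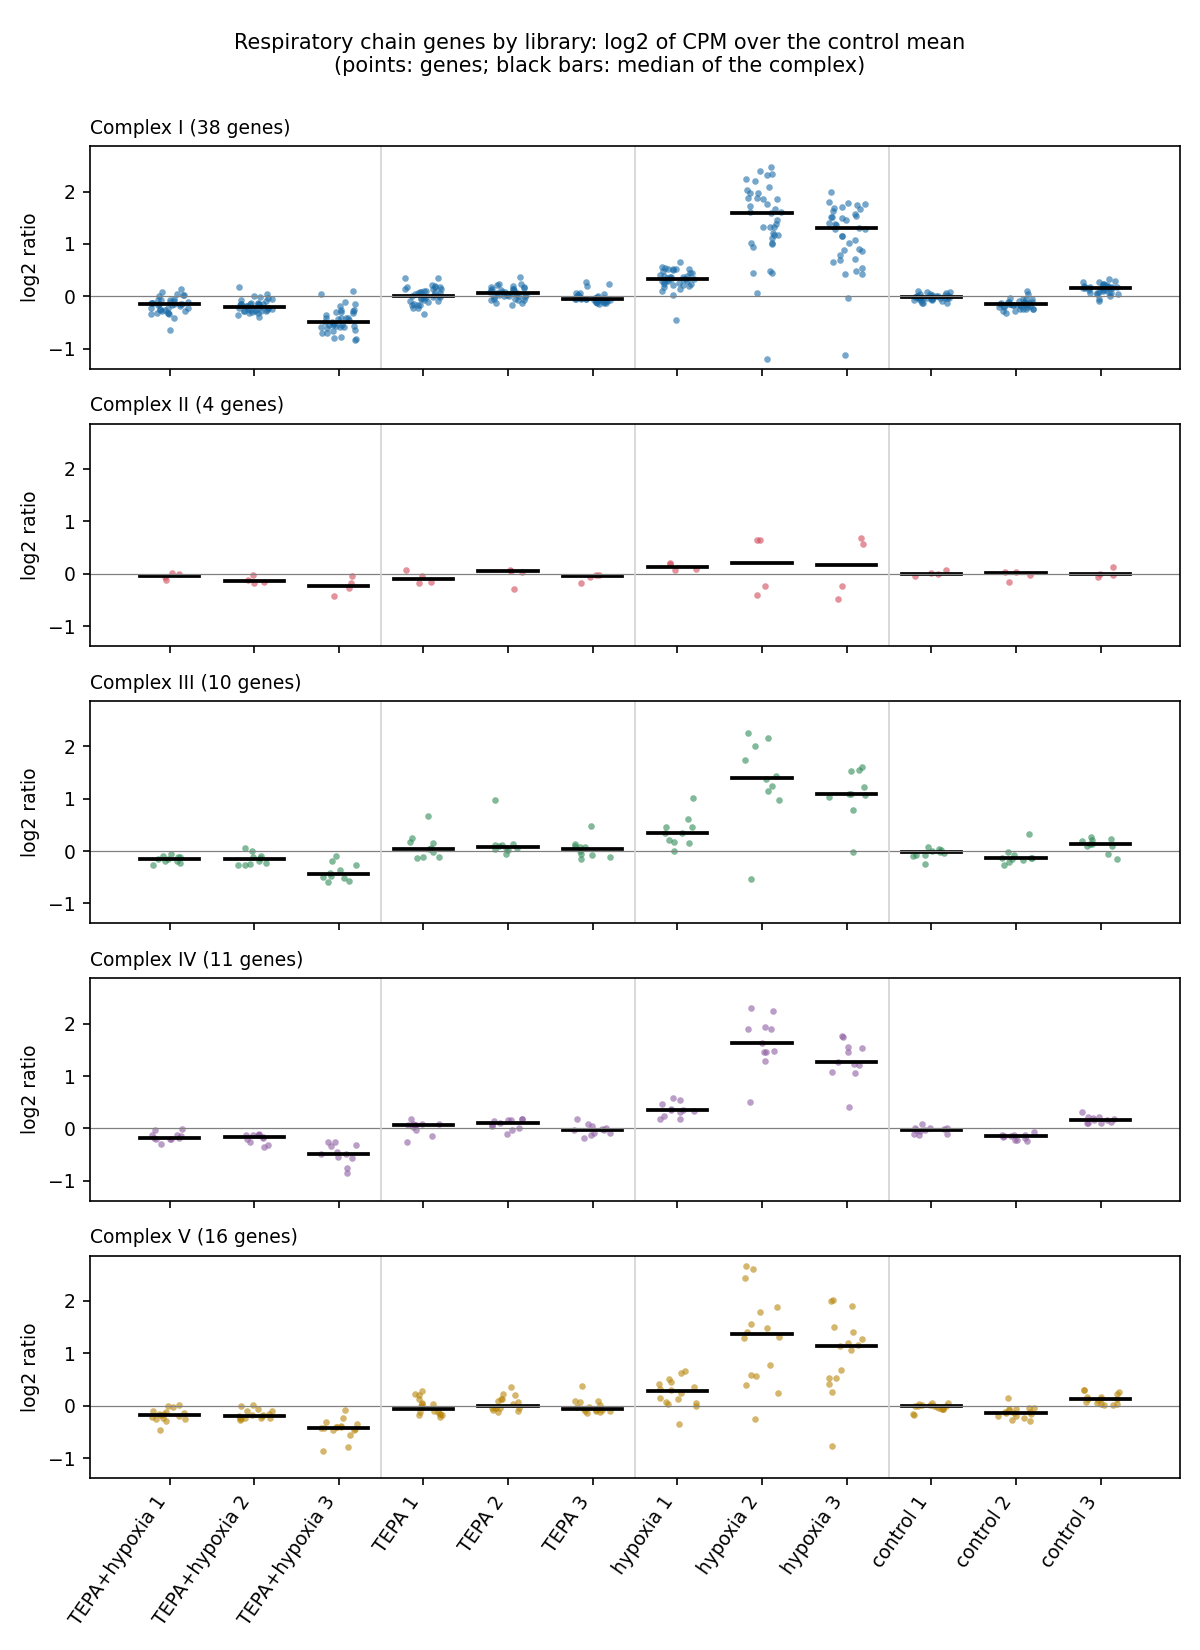
Each point is 1 gene of a complex in 1 library, on the vertical axis as the log2 ratio of its CPM to the control mean, with the 12 libraries along the horizontal axis and black bars for the median of the complex. Hypoxia 2 and 3 lie far above the rest in complexes I, III, IV and V and much less so in complex II, and the TEPA+hypoxia libraries lie at or below the control level.

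With all 12 libraries fitted, 71 of the 79 genes were called higher and 1 lower in hypoxia than in control. Called means a Benjamini-Hochberg adjusted p under 0.05 over all genes tested in edgeR's quasi-likelihood test, and all adjusted p-values below are of this kind. Among all genes tested, 29.4% were called higher and 27.8% lower in this comparison, and the median log2 fold change was 1.08 for the 79 genes and -0.01 for all genes. The 3 hypoxia libraries lay above all 3 control libraries for 68 of the 79 genes (27.4% of all genes) and below them for NDUFS1 and ATP5S (28.2% of all genes). These calls rested on hypoxia 2 and 3. Without those libraries the same test called 0 of the 79 genes in either direction (0.283% and 0.23% of all genes), with 39 genes higher and 1 lower at an unadjusted p under 0.05, a median log2 fold change of 0.33 and a smallest adjusted p of 0.0703. By complex the medians in that fit were 0.34 for complex I, 0.13 for II, 0.34 for III, 0.35 for IV and 0.27 for V. With the correction for length and GC content added to that fit, 1 was called higher and 0 lower (1.08% and 0.868% of all genes), and the median was 0.16. DESeq2 called 72 higher and 2 lower with all libraries (30.5% and 29.7% of all genes). When only the hypoxia and control libraries were fitted, edgeR called 0 in either direction (0.0% and 0.0% of all genes), where 69 were higher and 1 lower at an unadjusted p under 0.05. Even so, hypoxia 1 lay above all 3 control libraries for 71 of the 79 genes (35.7% of all genes) and below them for 2 (35.6%). In hypoxia 2 and 3, which held the high values, the summed epithelial markers were 18258 and 15635 CPM, against 7770.5 CPM in hypoxia 1 and 5525 to 7274 CPM in control, with 3 of 6 tested epithelial markers called higher in hypoxia than in control and 0 lower. The endothelial markers were divided, with 5 of 13 tested called higher and 6 lower, and summed to 7264 and 6577 CPM in hypoxia 2 and 3, against 4387 CPM in hypoxia 1 and 3810 to 4449 CPM in control. ENG and EGFL7 rose, by 1.36 and 1.46 on the log2 scale, while CDH5 fell by 0.74, PECAM1 fell by 0.41, ERG fell by 0.65, KDR fell by 1.29 and TEK fell by 2.04, and without hypoxia 2 and 3 0 of either list were called. The part of these markers in the result was not tested.

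TEPA+hypoxia libraries had less RNA from most nuclear respiratory chain genes than hypoxia libraries, and this held with hypoxia 1 alone. With all libraries, 73 of the 79 genes were called lower and 1 higher in TEPA+hypoxia than in hypoxia (30.6% and 30.9% of all genes), with a median log2 fold change of -1.34. DESeq2 called 73 lower and 1 higher (32.0% and 31.7% of all genes), and edgeR with only these 2 groups fitted called 71 lower and 0 higher (21.5% and 15.8%). Against hypoxia 1 alone, 56 were called lower and 0 higher (7.17% and 7.98% of all genes), with a median of -0.58 and a smallest edgeR adjusted p of 0.0178. By complex these 56 were 31 of 38 genes of complex I, 0 of 4 of complex II, 8 of 10 of complex III, 8 of 11 of complex IV and 9 of 16 of complex V. All 3 TEPA+hypoxia libraries lay below hypoxia 1 and below every TEPA and control library for 26 of the 79 genes (7.91% of all genes), and above them for 0 (5.43%). With a correction for transcript length and GC content and without hypoxia 2 and 3, 45 were called lower and 0 higher (8.76% and 4.33% of all genes), with a median of -0.38.

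**Figure D2:**
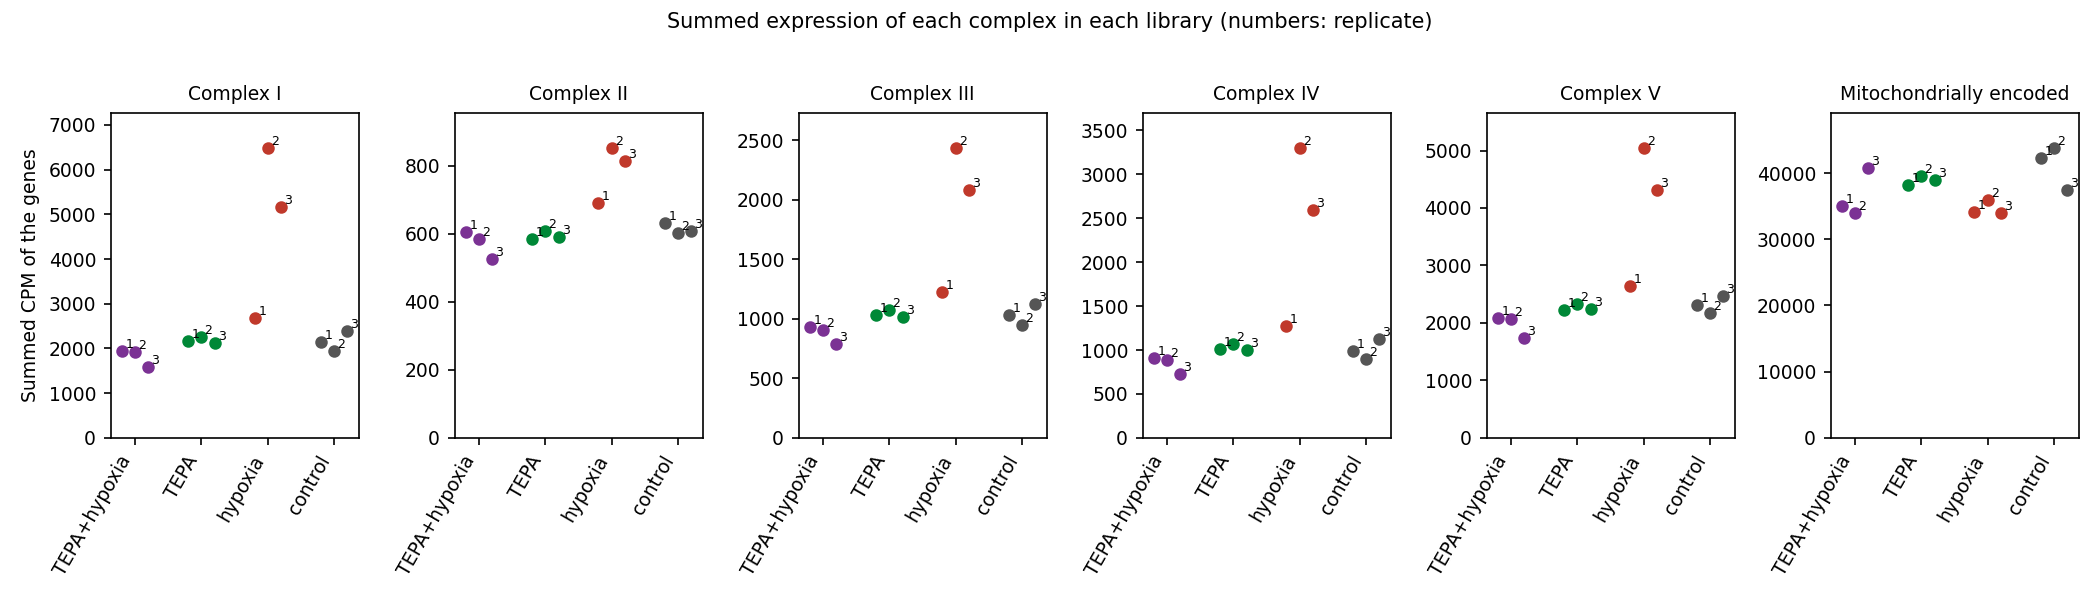
Summed CPM of the genes of each complex, 1 point per library numbered by replicate, with the 4 groups along the horizontal axis and a vertical axis from 0. In each complex TEPA+hypoxia 3 is lowest of all, hypoxia 1 is just above the control libraries, and hypoxia 2 and 3 are far above, by less in complex II.

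Complex I genes rose in hypoxia with all libraries and were lower in TEPA+hypoxia. Of 38 genes, 36 were called higher and NDUFS1 lower in hypoxia than in control, with a median log2 fold change of 1.19, while NDUFA5 was not called. Summed over the complex, the values were 1942, 1914 and 1577 in TEPA+hypoxia, 2176, 2255 and 2122 in TEPA, 2682 in hypoxia 1, 6489.6 and 5169 in hypoxia 2 and 3, and 2154, 1943 and 2397 in control, in CPM. NDUFB7, an accessory subunit of the membrane arm whose promoter is shown above, had 63.3, 64.6 and 46.5 CPM in TEPA+hypoxia and 77.3, 77.7 and 71.8 in TEPA. Hypoxia 1 had 100.4 CPM, hypoxia 2 and 3 had 388 and 279.9, and control had 70.9, 57.6 and 82.2. The TEPA+hypoxia and hypoxia values did not overlap, and hypoxia 2 and 3 were far above every other library. Its log2 fold change in hypoxia against control was 1.87 (SE 0.37, edgeR adjusted p = 0.00601), and in TEPA+hypoxia against hypoxia it was -2.14 (SE 0.37, edgeR adjusted p = 0.00217), or -0.78 (SE 0.18, edgeR adjusted p = 0.0222) against hypoxia 1 alone. In hypoxia 1 against control it was at 0.52 (SE 0.19, edgeR adjusted p = 0.145). NDUFB1, another small membrane-arm subunit, had 7.40, 9.004 and 7.12 CPM in TEPA+hypoxia and 11.5, 12.1 and 10.6 in TEPA. Hypoxia 1 had 16.6 CPM, hypoxia 2 and 3 had 49.2 and 35.7, and control had 11.6, 10.4 and 12.5. All TEPA+hypoxia values of NDUFB1 lay below those of every other group. The log2 fold change of NDUFB1 in TEPA+hypoxia was -2.11 (SE 0.31, edgeR adjusted p = 0.00217) against hypoxia and -1.07 (SE 0.17, edgeR adjusted p = 0.0178) against hypoxia 1 alone. NDUFB4, whose promoter is also shown above, had 68.9, 67.7 and 56.2 CPM in TEPA+hypoxia, 76.9, 81.9 and 74.3 in TEPA, 93.6 in hypoxia 1, 151 and 140.1 in hypoxia 2 and 3, and 72.4, 66.2 and 85.4 in control, and its TEPA+hypoxia libraries were below every hypoxia and TEPA library. NDUFB4 fell in TEPA+hypoxia by 0.53 on the log2 scale against hypoxia 1 alone (SE 0.15, edgeR adjusted p = 0.0314).

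The core subunits of complex I that carry its electrons did not all follow this pattern. NDUFS1 (chr2:206114817-206159603, minus strand, GRCh38 with GENCODE 29), a large core subunit and a carrier of iron-sulfur clusters, had 39.3, 39.4 and 41.8 CPM in TEPA+hypoxia and 47.4, 45.7 and 43.4 in TEPA. Hypoxia 1 had 34.8 CPM, hypoxia 2 and 3 had 20.9 and 22.01, and control had 46.6, 51.5 and 44.97. Unlike most of the other genes, it had every hypoxia library below every library of the other groups and the lowest values in hypoxia 2 and 3. NDUFS1 fell in hypoxia against control, with a log2 fold change of -0.88 (SE 0.17, edgeR adjusted p = 0.00601), which was -0.45 (SE 0.12, edgeR adjusted p = 0.0773) with hypoxia 1 alone. It was the 1 gene called higher in TEPA+hypoxia than in hypoxia, with a log2 fold change of 0.63 (SE 0.17, edgeR adjusted p = 0.00808), but with the correction for length and GC content this was 0.09 (SE 0.08, edgeR adjusted p = 0.367), and against hypoxia 1 alone it was 0.21 (SE 0.11, edgeR adjusted p = 0.208). NDUFV1, which binds the flavin and NADH, had 123, 129 and 87.3 CPM in TEPA+hypoxia and 129, 137 and 132 in TEPA. Hypoxia 1 had 152 CPM, hypoxia 2 and 3 had 428 and 340.2, and control had 131, 110.3 and 147. Hypoxia 2 and 3 were far above the rest and hypoxia 1 just above control, and against hypoxia 1 alone the log2 fold change of TEPA+hypoxia was -0.42 (SE 0.19, edgeR adjusted p = 0.131).

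Among the remaining complex I genes, NDUFA5, an accessory subunit of the matrix arm, had 55.98, 57.2 and 54.3 CPM in TEPA+hypoxia and 51.7, 52.9 and 59.5 in TEPA. Hypoxia 1 had 59.3 CPM, hypoxia 2 and 3 had 53.2 and 49.8, and control had 50.5, 52.7 and 49.3. The values of its groups lay within a narrow band, with a log2 fold change in hypoxia against control of 0.09 (SE 0.10, edgeR adjusted p = 0.436). It was also the 1 gene of 79 whose TEPA+hypoxia values all lay above control (13.0% of all genes), while 35 genes lay below control (15.5%). NDUFA1, a small membrane-arm subunit, had 24.9, 27.5 and 18.7 CPM in TEPA+hypoxia, 36.7, 32.3 and 32.8 in TEPA, 48.1 in hypoxia 1, 121 and 99.3 in hypoxia 2 and 3, and 32.6, 28.8 and 38.7 in control, and its TEPA+hypoxia values were the lowest of all groups. Its log2 fold change against hypoxia 1 alone was -1.01 (SE 0.19, edgeR adjusted p = 0.0178). NDUFC2, another membrane-arm subunit that shares sequence with a read-through transcript, had a log2 fold change of -0.62 (SE 0.11, edgeR adjusted p = 0.0178) in the same comparison. NDUFAB1, the mitochondrial acyl carrier protein, had -0.57 (SE 0.16), and NDUFA4, named for complex I but now assigned to complex IV, had -0.69 (SE 0.17). With all libraries, the log2 fold changes in hypoxia against control were 0.99 (SE 0.22, edgeR adjusted p = 0.0063) for NDUFAB1 and 1.03 (SE 0.22, edgeR adjusted p = 0.00601) for NDUFA4. In hypoxia 1 against control, with 0 calls, they were 0.28 (SE 0.16) for NDUFAB1, 0.40 (SE 0.17) for NDUFA4 and 0.22 (SE 0.11) for NDUFA5. NDUFA7, an accessory subunit of the matrix arm, had 20.1, 19.1 and 15.8 CPM in TEPA+hypoxia, 22.2, 22.5 and 19.6 in TEPA, 30.1 in hypoxia 1, 77.9 and 53.8 in hypoxia 2 and 3, and 18.1, 17.5 and 21.5 in control, and every hypoxia library lay above every other library. Its log2 fold change in hypoxia against control was 1.50 (SE 0.27, edgeR adjusted p = 0.00601), and 0.66 (SE 0.16, edgeR adjusted p = 0.0703) with hypoxia 1 alone, the smallest adjusted p of the 79 genes in that fit.

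**Figure D3:**
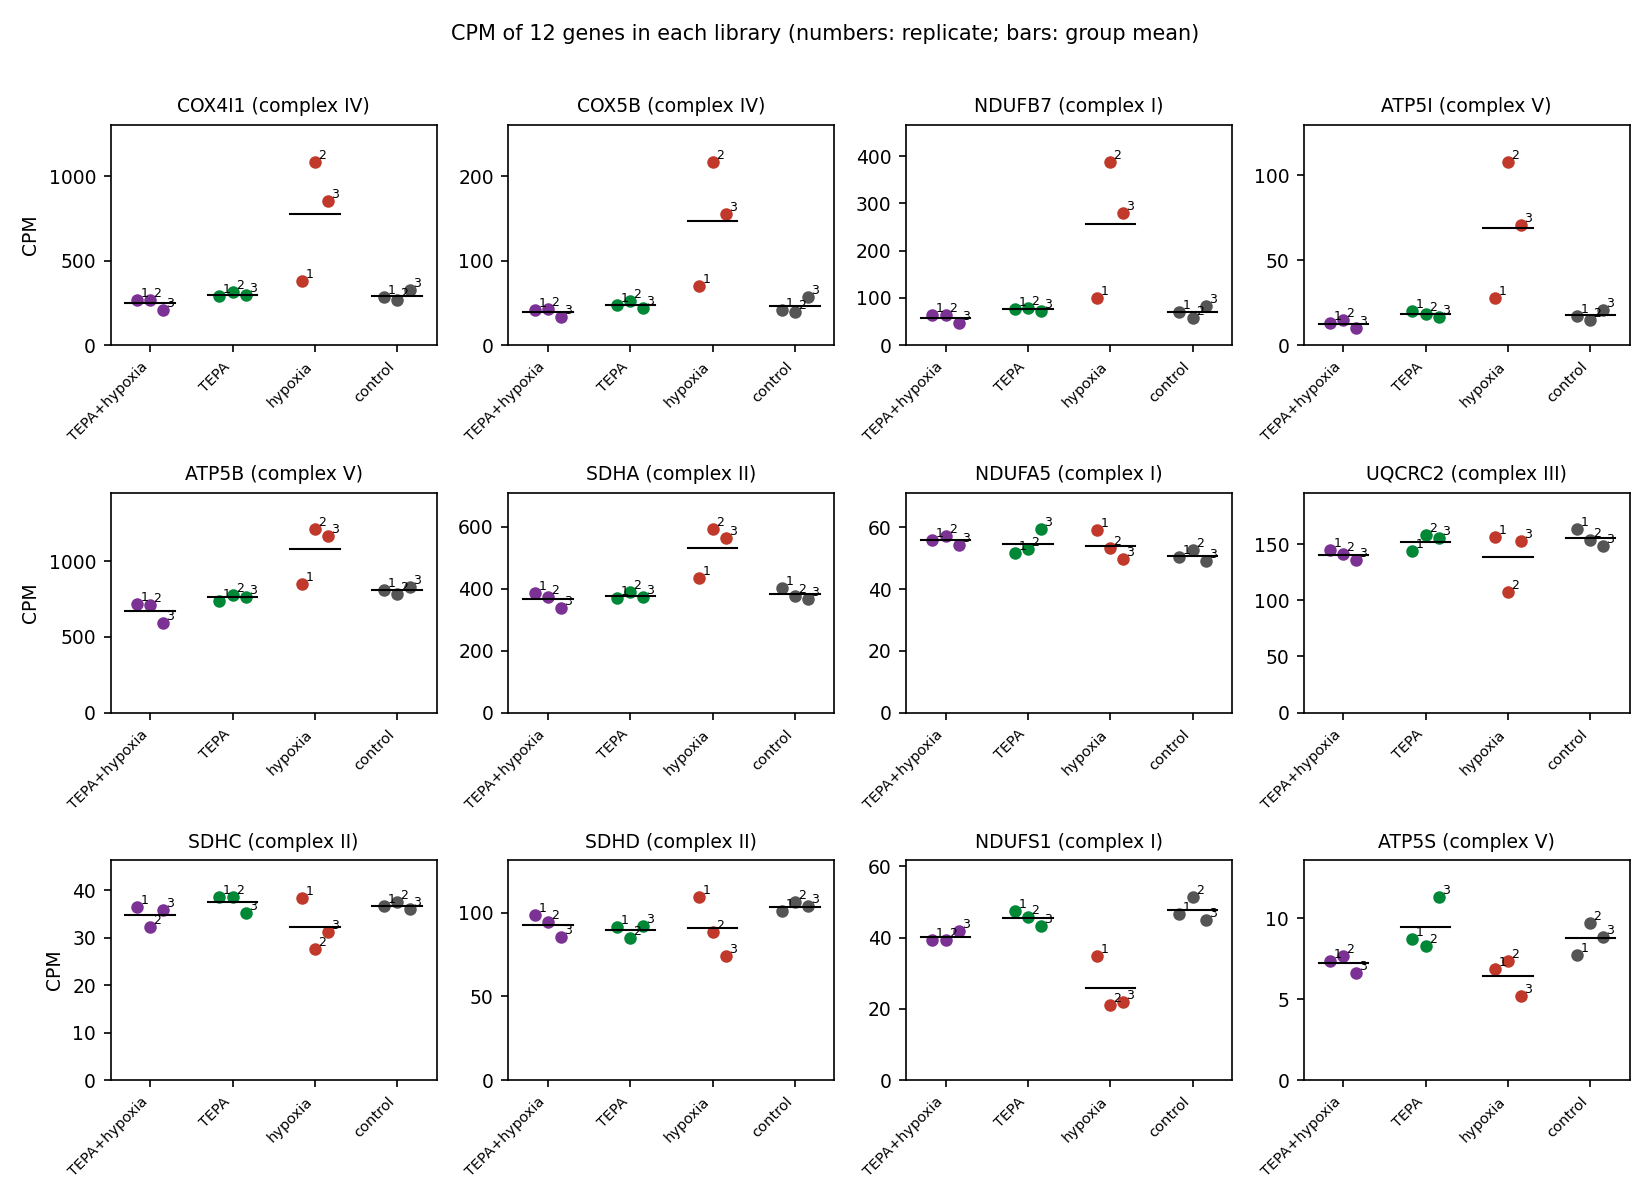
CPM of 12 genes in each library, with points numbered by replicate, black bars for the group mean and each vertical axis from 0. COX4I1, COX5B, NDUFB7 and ATP5I are far higher in hypoxia 2 and 3 than elsewhere, and ATP5B and SDHA differ less. NDUFA5 stays in a narrow band, and UQCRC2 is lowest in hypoxia 2. SDHC and SDHD lie below all control libraries in hypoxia 2 and 3, and NDUFS1 is lowest in hypoxia.

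Complex II is also an enzyme of the tricarboxylic acid cycle. Its median log2 fold change in hypoxia against control was 0.15, with 2 of 4 genes called higher, and the summed CPM were 605, 584 and 526 in TEPA+hypoxia, 585, 609 and 591 in TEPA, 689.6 in hypoxia 1, 853 and 815 in hypoxia 2 and 3, and 632, 603 and 609 in control. SDHA, the flavoprotein that oxidises succinate, had 385, 374 and 336 CPM in TEPA+hypoxia and 371, 389 and 373 in TEPA. Hypoxia 1 had 435 CPM, hypoxia 2 and 3 had 592 and 562, and control had 401, 376 and 367. Its hypoxia values were above all others, and it rose in hypoxia against control with a log2 fold change of 0.47 (SE 0.12, edgeR adjusted p = 0.00748); reads of SDHA may be shared with the pseudogenes SDHAP1 to SDHAP3. SDHB, the iron-sulfur subunit, had 85.3, 82.6 and 68.7 CPM in TEPA+hypoxia, 83.02, 96.2 and 90.4 in TEPA, 107 in hypoxia 1, 144 and 147 in hypoxia 2 and 3, and 92.8, 83.2 and 101 in control, also highest in the hypoxia libraries. SDHB rose in hypoxia by a log2 fold change of 0.52 (SE 0.14, edgeR adjusted p = 0.0106). SDHC, a membrane anchor, had 36.3, 32.3 and 35.8 CPM in TEPA+hypoxia and 38.5, 38.6 and 35.2 in TEPA. Hypoxia 1 had 38.3 CPM, hypoxia 2 and 3 had 27.6 and 31.1, and control had 36.7, 37.5 and 35.99. SDHD (chr11:112086773-112120013, plus strand), the other anchor, had 98.7, 94.9 and 85.6 CPM in TEPA+hypoxia and 91.6, 84.8 and 92.2 in TEPA. Hypoxia 1 had 109.7 CPM, hypoxia 2 and 3 had 88.7 and 74.3, and control had 101, 106 and 104. For both anchors hypoxia 1 lay above hypoxia 2 and 3, and hypoxia 2 and 3 were below all control libraries. Neither anchor was called in hypoxia against control, with a log2 fold change of -0.18 (SE 0.12, edgeR adjusted p = 0.218) for SDHC and -0.19 (SE 0.13, edgeR adjusted p = 0.22) for SDHD, but with the correction for length and GC content both were called lower, at -0.69 (SE 0.22, edgeR adjusted p = 0.0246) for SDHC and -0.52 (SE 0.17, edgeR adjusted p = 0.0274) for SDHD. The correction took SDHC at 460 bases, the length of a single transcript, and other transcripts were not tried. Without hypoxia 2 and 3 none of the 4 genes was called in hypoxia against control, with 0.19 (SE 0.10) for SDHA, 0.21 (SE 0.14) for SDHB, 0.06 (SE 0.11) for SDHC and 0.08 (SE 0.11) for SDHD, or with the correction -0.11 (SE 0.12) for SDHC and -0.05 (SE 0.09) for SDHD. Against hypoxia with all libraries, TEPA+hypoxia had SDHA at -0.54 (SE 0.12, edgeR adjusted p = 0.00302) and SDHB at -0.75 (SE 0.14, edgeR adjusted p = 0.00219) on the log2 scale. No complex II gene was called in TEPA+hypoxia against hypoxia 1 alone, where SDHA was at -0.24 (SE 0.10, edgeR adjusted p = 0.104) and SDHB at -0.43 (SE 0.14, edgeR adjusted p = 0.0569).

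In complex III, 9 of 10 genes were called higher in hypoxia than in control, with a median log2 fold change of 1.00. The summed CPM were 931, 903 and 788 in TEPA+hypoxia, 1034, 1073 and 1016 in TEPA, 1223 in hypoxia 1, 2437 and 2079 in hypoxia 2 and 3, and 1029, 951 and 1129 in control. UQCRFS1, the Rieske iron-sulfur protein, had 159, 153 and 137 CPM in TEPA+hypoxia and 168, 189 and 174 in TEPA. Hypoxia 1 had 203 CPM, hypoxia 2 and 3 had 359.5 and 315, and control had 179, 167 and 202. Its TEPA+hypoxia values lay below every other group, and its log2 fold change in TEPA+hypoxia was -0.96 (SE 0.17, edgeR adjusted p = 0.00217) against hypoxia and -0.43 (SE 0.12, edgeR adjusted p = 0.0356) against hypoxia 1 alone. CYC1, the haem-bearing cytochrome c1, had 154, 154 and 141 CPM in TEPA+hypoxia, 189, 188 and 174 in TEPA, 208 in hypoxia 1, 399.6 and 369.96 in hypoxia 2 and 3, and 172, 164 and 205 in control, with the TEPA+hypoxia libraries below all others. The log2 fold change of CYC1 in hypoxia against control was 0.85 (SE 0.20, edgeR adjusted p = 0.00652), but it turned to -0.13 (SE 0.06, edgeR adjusted p = 0.0994) with the correction for length and GC content, and in TEPA+hypoxia against hypoxia 1 alone it was -0.46 (SE 0.12, edgeR adjusted p = 0.0262), or -0.10 (SE 0.07, edgeR adjusted p = 0.372) with the correction. The core proteins, which hold no redox group, did not move as a pair. UQCRC1 had 163, 150.4 and 131 CPM in TEPA+hypoxia and 181, 185 and 164 in TEPA. Hypoxia 1 had 206 CPM, hypoxia 2 and 3 had 429 and 384, and control had 187, 165 and 193. UQCRC2 had 145, 141 and 136 CPM in TEPA+hypoxia and 144, 158 and 155 in TEPA. Hypoxia 1 had 156 CPM, hypoxia 2 and 3 had 108 and 153, and control had 163, 154 and 149. UQCRC1 was highest in hypoxia 2 and 3, while hypoxia 2 was the lowest library for UQCRC2 and its other hypoxia libraries were within the control range. The log2 fold change in hypoxia against control was 0.90 (SE 0.21, edgeR adjusted p = 0.00704) for UQCRC1 and -0.16 (SE 0.13, edgeR adjusted p = 0.303) for UQCRC2; with the correction for length and GC content UQCRC2 was called higher, at 0.32 (SE 0.10, edgeR adjusted p = 0.0285). UQCR10, a small subunit, had 27.7, 30.6 and 21.6 CPM in TEPA+hypoxia, 36.7, 33.2 and 32.2 in TEPA, 47.2 in hypoxia 1, 103 and 89.7 in hypoxia 2 and 3, and 30.6, 25.5 and 35.99 in control, and every hypoxia library was above all others. Its log2 fold change in TEPA+hypoxia against hypoxia 1 alone was -0.81 (SE 0.19, edgeR adjusted p = 0.0213), and that of UQCRH, the hinge protein, was -0.58 (SE 0.15, edgeR adjusted p = 0.0265). UQCRHL had 11 to 50 counts in a library and the highest log2 fold change of the tested complex III genes in hypoxia against control, 1.60 (SE 0.35, edgeR adjusted p = 0.00612). For hypoxia 1 against control the values, none of them called, were 0.20 (SE 0.12) for CYC1, 0.18 (SE 0.13) for UQCRC1, 0.01 (SE 0.10) for UQCRC2 and 1.02 (SE 0.40) for UQCRHL, and 0.14 (SE 0.09) for UQCRC2 with the correction.

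All 11 tested genes of complex IV were called higher in hypoxia than in control and lower in TEPA+hypoxia than in hypoxia with all libraries, with medians of 1.16 and -1.60 on the log2 scale. The median against hypoxia 1 alone was -0.63. The summed CPM were 911, 890.04 and 732 in TEPA+hypoxia, 1015, 1065 and 999.6 in TEPA, 1274 in hypoxia 1, 3302 and 2598 in hypoxia 2 and 3, and 984, 898 and 1126 in control. COX4I1 (chr16:85798633-85807044, plus strand), a subunit that contacts the catalytic core, had 268, 267 and 209 CPM in TEPA+hypoxia and 288, 313 and 296 in TEPA. Hypoxia 1 had 380.1 CPM, hypoxia 2 and 3 had 1086 and 855, and control had 285, 265 and 326. The hypoxia values were above all others, and TEPA+hypoxia 3 was the lowest library. COX4I1 had a log2 fold change of 1.40 (SE 0.29, edgeR adjusted p = 0.00601) in hypoxia against control and, in TEPA+hypoxia, of -1.64 (SE 0.29, edgeR adjusted p = 0.00217) against hypoxia and -0.61 (SE 0.14, edgeR adjusted p = 0.0218) against hypoxia 1 alone. COX5B, a zinc-binding subunit on the matrix side whose promoter is shown above, had 41.5, 42.8 and 32.8 CPM in TEPA+hypoxia and 48.00, 51.6 and 43.6 in TEPA. Hypoxia 1 had 69.4 CPM, hypoxia 2 and 3 had 217 and 155, and control had 41.99, 39.4 and 56.9. The TEPA+hypoxia and TEPA values of COX5B did not overlap, and TEPA+hypoxia lay partly within control. Its log2 fold change in TEPA+hypoxia against hypoxia 1 alone was -0.82 (SE 0.19, edgeR adjusted p = 0.0207). COX7A2L, which helps join complexes III and IV into supercomplexes, had 75.4, 69.7 and 60.7 CPM in TEPA+hypoxia, 81.4, 77.1 and 74.5 in TEPA, 86.96 in hypoxia 1, 109 and 101 in hypoxia 2 and 3, and 74.3, 72.7 and 82.5 in control, with less spread between the groups than COX4I1 and COX5B. COX7A2L had a log2 fold change of 0.37 (SE 0.11, edgeR adjusted p = 0.0179) in hypoxia against control and of -0.33 (SE 0.13, edgeR adjusted p = 0.0858) in TEPA+hypoxia against hypoxia 1 alone. In hypoxia 1 against control it was not called, and neither was COX4I1, with 0.38 (SE 0.14) for COX4I1 and 0.19 (SE 0.13) for COX7A2L. Against hypoxia 1 alone, COX5A, COX6A1 and COX7A2L were the 3 genes of the 11 that were not called in TEPA+hypoxia. In that comparison the log2 fold change of COX6C, a small membrane subunit, was -0.70 (SE 0.13, edgeR adjusted p = 0.0179) and that of COX7A2, the widely expressed isoform of its subunit, was -0.78 (SE 0.19, edgeR adjusted p = 0.024).

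In complex V, 13 of 16 tested genes were called higher in hypoxia than in control, with a median log2 fold change of 0.98, and ATP5A1, ATP5F1 and ATP5S were not called. The summed CPM were 2079, 2066 and 1742 in TEPA+hypoxia, 2228, 2331 and 2234 in TEPA, 2639.9 in hypoxia 1, 5047 and 4319.5 in hypoxia 2 and 3, and 2319, 2170.1 and 2474 in control. ATP5B, the beta subunit of the catalytic head, had 719, 709.5 and 589 CPM in TEPA+hypoxia and 739, 779 and 767 in TEPA. Hypoxia 1 had 852 CPM, hypoxia 2 and 3 had 1212 and 1169.7, and control had 809, 785 and 827. Its hypoxia libraries were above all others and its TEPA+hypoxia libraries below all others. ATP5B had a log2 fold change of 0.42 (SE 0.13, edgeR adjusted p = 0.019) in hypoxia against control and of -0.33 (SE 0.11, edgeR adjusted p = 0.055) in TEPA+hypoxia against hypoxia 1 alone. ATP5A1, the alpha subunit, had 248, 248 and 199 CPM in TEPA+hypoxia, 248, 258 and 246 in TEPA, 274 in hypoxia 1, 349 and 353 in hypoxia 2 and 3, and 267, 257 and 274 in control, and hypoxia 1 lay within the control range. Its log2 fold change in hypoxia against control was 0.29 (SE 0.12, edgeR adjusted p = 0.0547). ATP5F1, a stalk subunit, was at 0.17 (SE 0.10, edgeR adjusted p = 0.158) in the same comparison. ATP5I (chr4:672436-674338, minus strand), the small membrane subunit e, had 12.7, 14.6 and 10.2 CPM in TEPA+hypoxia and 20.2, 18.6 and 16.6 in TEPA. Hypoxia 1 had 27.7 CPM, hypoxia 2 and 3 had 108 and 70.7, and control had 17.1, 14.98 and 20.6. The TEPA+hypoxia values were below those of every other group, and hypoxia 2 and 3 were far above. ATP5I had the lowest log2 fold change of the 79 genes in TEPA+hypoxia, -2.46 (SE 0.38, edgeR adjusted p = 0.00217) against hypoxia and -1.14 (SE 0.20, edgeR adjusted p = 0.0178) against hypoxia 1 alone.

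Small subunits of the central stalk were among the genes with the highest log2 fold change in hypoxia against control. ATP5D, the delta subunit, had 50.9, 51.2 and 37.96 CPM in TEPA+hypoxia, 60.2, 65.7 and 54.4 in TEPA, 73.5 in hypoxia 1, 327 and 208 in hypoxia 2 and 3, and 48.99, 41.99 and 62.8 in control, and ATP5E, the epsilon subunit, had 93.9, 92.6 and 75.98 CPM in TEPA+hypoxia and 127, 121 and 112 in TEPA. Hypoxia 1 had 162 CPM, hypoxia 2 and 3 had 564 and 394, and control had 103, 86.1 and 125. Both were highest in hypoxia 2, then in hypoxia 3, then in hypoxia 1, and no other library reached hypoxia 1. The log2 fold changes in hypoxia against control were 1.98 (SE 0.40, edgeR adjusted p = 0.00601) for ATP5D and 1.83 (SE 0.34, edgeR adjusted p = 0.00601) for ATP5E, and in TEPA+hypoxia against hypoxia 1 alone they were -0.65 (SE 0.20, edgeR adjusted p = 0.0451) for ATP5D and -0.88 (SE 0.16, edgeR adjusted p = 0.0179) for ATP5E. The 3 genes for subunit c, which make the same mature protein of the rotor ring, had different log2 fold changes in hypoxia against control: 1.33 (SE 0.30, edgeR adjusted p = 0.00646) for ATP5G1, 1.14 (SE 0.24, edgeR adjusted p = 0.00601) for ATP5G2 and 0.56 (SE 0.15, edgeR adjusted p = 0.0111) for ATP5G3. In TEPA+hypoxia against hypoxia 1 alone they were -0.74 (SE 0.23, edgeR adjusted p = 0.042) for ATP5G1, -0.59 (SE 0.13, edgeR adjusted p = 0.0186) for ATP5G2 and -0.40 (SE 0.12, edgeR adjusted p = 0.0444) for ATP5G3. The differences between these 3 genes were not tested. ATP5S had 7.34, 7.69 and 6.62 CPM in TEPA+hypoxia, 8.71, 8.27 and 11.3 in TEPA, 6.86 in hypoxia 1, 7.35 and 5.17 in hypoxia 2 and 3, and 7.74, 9.70 and 8.87 in control, with hypoxia below control in every library, and its log2 fold change in hypoxia against control was -0.43 (SE 0.18, edgeR adjusted p = 0.056). With hypoxia 1 alone the complex V values against control, with 0 calls, were 0.08 (SE 0.11) for ATP5B, 0.04 (SE 0.12) for ATP5A1, -0.00 (SE 0.11) for ATP5F1, 0.52 (SE 0.20) for ATP5D, 0.63 (SE 0.17) for ATP5E, 0.36 (SE 0.23) for ATP5G1, 0.33 (SE 0.13) for ATP5G2, 0.13 (SE 0.12) for ATP5G3 and -0.35 (SE 0.22) for ATP5S.

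Low oxygen under the chelator left most genes below the level with the chelator alone, by amounts that did not pass the test. In TEPA+hypoxia against TEPA, 77 of the 79 log2 fold changes were negative, with a median of -0.27, and by complex the medians were -0.25 for complex I, -0.08 for II, -0.32 for III, -0.29 for IV and -0.23 for V. The 3 TEPA+hypoxia libraries lay below all 3 TEPA libraries for 56 of the 79 genes (18.0% of all genes) and above them for 0 (12.5%). With all libraries fitted, edgeR's quasi-likelihood test called 0 of the 79 genes higher and 0 lower (0.0623% and 0.0346% of all genes), with 0 higher and 2 lower at an unadjusted p under 0.05, and DESeq2 called 0 in either direction (0.637% and 0.367%). Without hypoxia 2 and 3, which belong to neither group but enter the shared estimate of the spread (a common dispersion of 0.0339 with them and 0.0085 without), 43 genes were lower at an unadjusted p under 0.05, and NDUFB1 alone was called lower (0.842% of all genes), with a log2 fold change of -0.53 (SE 0.13, edgeR adjusted p = 0.0499). In the fit without hypoxia 2 and 3 and with the correction for length and GC content 28 were called lower and 0 higher (6.21% and 2.2% of all genes), and 7 were called lower and 0 higher when only these 2 groups were fitted (1.07% and 1.47%). The 3 lowest log2 fold changes with all libraries were -0.80 (SE 0.36, edgeR adjusted p = 0.649) for UQCRHL, -0.57 (SE 0.37, edgeR adjusted p = 0.794) for ATP5I and -0.54 (SE 0.30, edgeR adjusted p = 0.756) for NDUFB1, and the highest was 0.06 (SE 0.13, edgeR adjusted p = 0.928) for SDHD. NDUFV3, an accessory subunit near the NADH site, had 29.5, 26.8 and 29.1 CPM in TEPA+hypoxia and 36.3, 37.99 and 32.2 in TEPA. Hypoxia 1 had 39.3 CPM, hypoxia 2 and 3 had 64.5 and 55.96, and control had 31.8, 31.5 and 33.6. Its TEPA+hypoxia values were below all 3 TEPA values, with a log2 fold change of -0.32 (SE 0.16, edgeR adjusted p = 0.7).

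At normal oxygen the chelator had no effect that passed the test. In TEPA against control, edgeR's quasi-likelihood test called 0 of the 79 genes in either direction (0.0% and 0.0% of all genes), 0 were past an unadjusted p under 0.05, and DESeq2 called 0 (0.00692% and 0.0346%). The count was also 0 when only the TEPA and control libraries were fitted (0.0145% and 0.0362%). Without hypoxia 2 and 3 the count stayed at 0 in either direction (0.0% and 0.0263% of all genes), and with the correction for length and GC content added it was also 0 (0.0297% and 0.0891%). The log2 fold changes were positive for 46 genes, with a median of 0.03. TEPA libraries lay above all control libraries for UQCRHL (6.64% of all genes) and below them for NDUFA6, NDUFA9, SDHD and ATP5B (6.92%). The highest log2 fold changes were 0.72 (SE 0.36, edgeR adjusted p = 1) for UQCRHL and 0.34 (SE 0.23, edgeR adjusted p = 1) for NDUFC1, and the lowest was -0.21 (SE 0.13, edgeR adjusted p = 1) for SDHD. NDUFC1, a membrane-arm accessory subunit, had 14.4, 13.7 and 14.1 CPM in TEPA+hypoxia, 19.3, 19.6 and 18.4 in TEPA, 21.9 in hypoxia 1, 45.99 and 36.98 in hypoxia 2 and 3, and 14.2, 12.8 and 18.4 in control, and its TEPA values were at the level of control 3 and above the other control libraries. For complex IV, the copper-bearing complex, the 3 sums with TEPA lay within the control range.

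**Figure D4:**
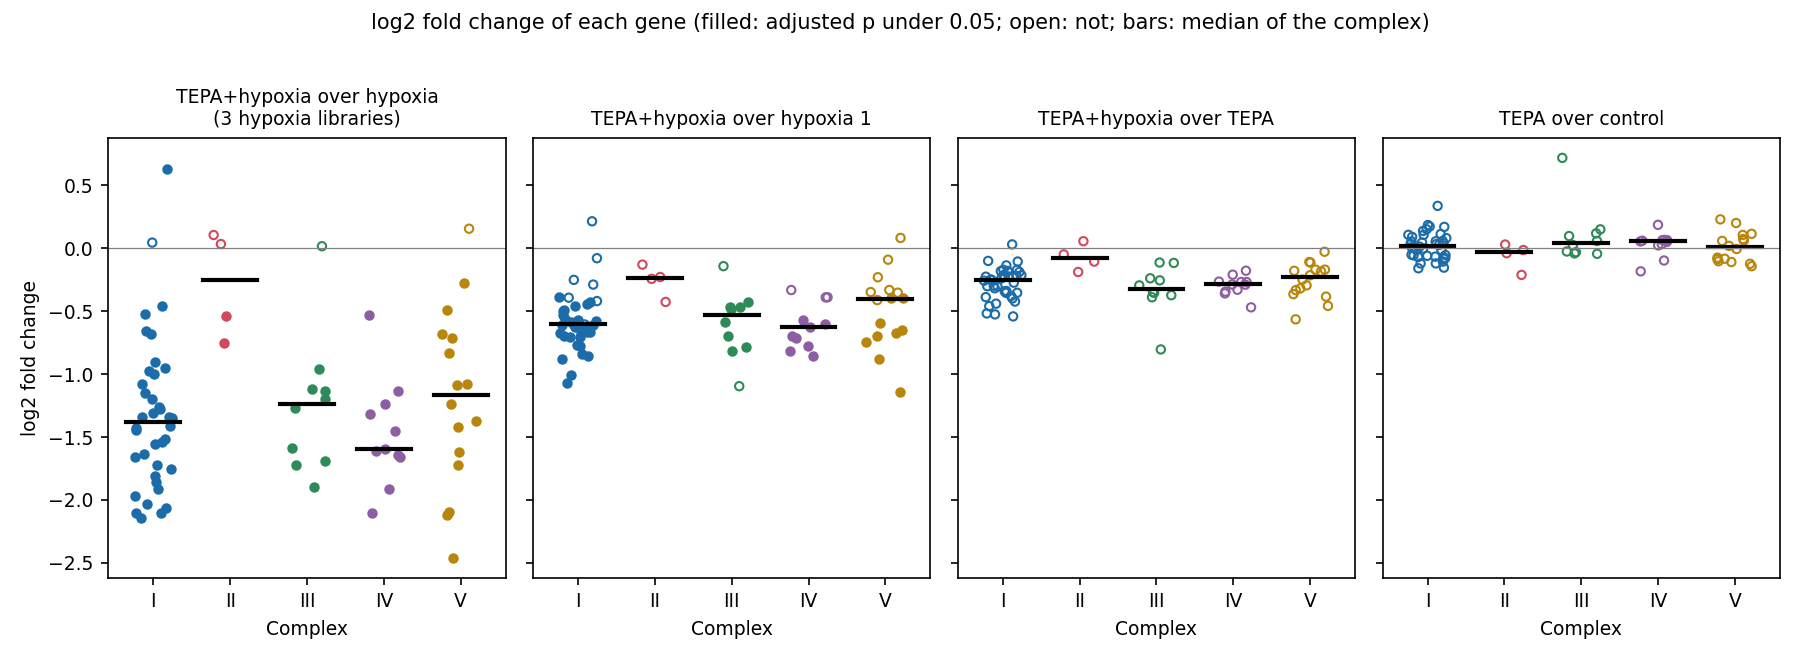
log2 fold changes of the tested genes by complex, with 1 panel per comparison, filled points for genes at an adjusted p under 0.05, open points for the others and bars for the median of the complex. TEPA+hypoxia lies below hypoxia and, by less, below hypoxia 1 alone, slightly below TEPA without filled points, and TEPA lies around 0 against control.

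The response to low oxygen was compared with and without the chelator by the interaction, the log2 fold change of TEPA+hypoxia against TEPA minus that of hypoxia against control. With all libraries, 71 of the 79 genes were called lower and 1 higher (21.5% and 17.3% of all genes), with a median of -1.33. The 71 were 36 genes of complex I, 2 of complex II, 9 of complex III, 11 of complex IV and 13 of complex V, and the 1 called higher was NDUFS1. Without hypoxia 2 and 3, 0 of the 79 were called in either direction in edgeR's quasi-likelihood test (0.0% and 0.0% of all genes), with 58 lower at an unadjusted p under 0.05, a median of -0.59 and a smallest adjusted p of 0.0643, and DESeq2 with all libraries called 71 lower and 1 higher (24.5% and 21.6%). With the correction for length and GC content added, 6 were called lower and 0 higher (0.252% and 0.0223%), with a median of -0.37. The count of lower calls also went to 0 without control 1, control 2, hypoxia 3, TEPA 2 or TEPA+hypoxia 3. These comparisons share the hypoxia and control libraries with those above.

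With all libraries, the size of the difference went with transcript length and GC content, among these genes as among all genes, and with hypoxia 1 alone less with GC content. The tested genes have short transcripts, with a median of 844 bases (300 to 8363), against 2393 bases for the 13032 tested genes with an annotated length, and a median GC content of 50.6%, against 49.6%. Across the 79 genes, Spearman's rho between the log2 fold change in hypoxia against control and transcript length was -0.40, and with GC content it was 0.50, against -0.49 and 0.52 across all 13032 genes. With hypoxia 1 alone, rho with length was -0.43 for the 79 genes and -0.41 for all genes, and rho with GC content was 0.19 and 0.36. Between TEPA+hypoxia and hypoxia 1, rho with length was 0.38 and 0.45, and rho with GC content was -0.21 and -0.39. For TEPA+hypoxia against TEPA, rho with length was 0.19 and 0.30, and rho with GC content was -0.34 and -0.36. Genes share their libraries and are not independent replicates, so no p is given. With length and GC content corrected for, 70 genes were called higher and 4 lower in hypoxia than in control (29.2% and 17.2% of all genes), the median log2 fold change was 0.62, and in TEPA+hypoxia against hypoxia 72 were called lower and 1, SDHC, higher (34.5% and 18.6%), with a median of -0.80. The corrected interaction had 68 genes called lower and 0 higher (17.5% and 6.52%), with a median of -0.79, and in TEPA+hypoxia against TEPA 0 were called lower and 0 higher (0.046% and 0.215%), with 6 lower at an unadjusted p under 0.05 in edgeR's quasi-likelihood test. After the correction, rho with GC content in hypoxia against control was -0.35 across the 79 genes and -0.01 across all genes. In TEPA+hypoxia against hypoxia it was 0.34 and 0.005, against -0.49 and -0.52 before the correction. For the 79 genes the sign was thus opposite after the correction, so corrected values of single GC-rich members may be shifted too far.

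**Figure D5:**
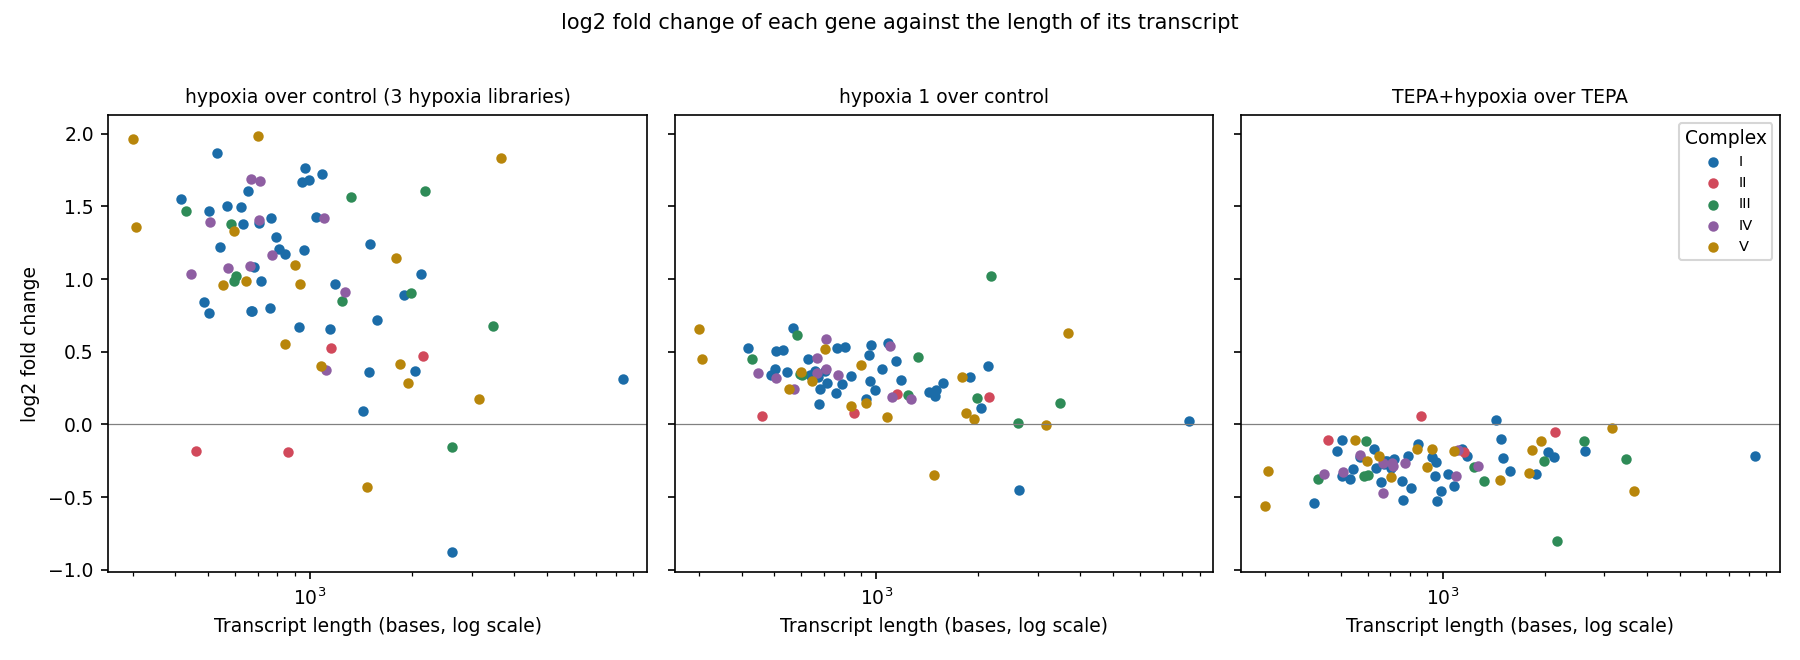
log2 fold change of each tested gene, coloured by complex, against the length of its transcript in bases on a log axis, in 3 panels for hypoxia against control, hypoxia 1 against control and TEPA+hypoxia against TEPA. In the first and second panels shorter transcripts tend to lie higher; in the third the points lie mostly below 0 with a weak trend.

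Genes near the respiratory chain were compared by the same fit, where 29.4% of all genes were called higher and 27.8% lower in hypoxia than in control. Of the ribosomal proteins, 75 of 81 cytosolic ribosomal protein genes were called higher in hypoxia than in control and 2 lower, with a median log2 fold change of 1.20, and 61 of 77 mitochondrial ribosomal protein genes were called higher and 0 lower, with a median of 0.75. In TEPA+hypoxia against hypoxia 1 alone, 50 of 81 cytosolic ribosomal protein genes were called lower and 1 higher, and 27 of 77 mitochondrial ones lower and 0 higher (7.17% and 7.98% of all genes). Assembly factors build the complexes without staying in them. In hypoxia against control 8 of 15 for complex I were called higher and 0 lower (median 0.32), and 15 of 23 for complex IV were called higher and 3 lower (median 0.74), and no difference between these lists and the 79 genes was tested. COX17, the copper chaperone of complex IV, had 26.4, 24.3 and 19.9 CPM in TEPA+hypoxia, 27.6, 25.3 and 25.04 in TEPA, 33.00 in hypoxia 1, 79.4 and 62.7 in hypoxia 2 and 3, and 24.2, 18.6 and 27.6 in control, highest in hypoxia 2 and 3, with a log2 fold change in hypoxia against control of 1.32 (SE 0.27, edgeR adjusted p = 0.00601), or 0.49 (SE 0.19, edgeR adjusted p = 0.163) with hypoxia 1 alone. PET100, a small assembly factor of complex IV, had the log2 fold change -1.14 (SE 0.22, edgeR adjusted p = 0.0179) in TEPA+hypoxia against hypoxia 1 alone. Of 18 enzymes of the tricarboxylic acid cycle, 6 were called higher and 5 lower in hypoxia than in control (median 0.06), and of 18 outer membrane and general mitochondrial genes 9 were higher and 3 lower (median 0.14). The shares of the cycle's enzymes were near those of all genes.

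Of 10 tested regulators of these genes, 2 were called higher and 7 lower in hypoxia than in control with all libraries (29.4% and 27.8% of all genes), with a median log2 fold change of -0.47. With hypoxia 1 alone 0 were called (0.283% and 0.23% of all genes), with a median of -0.17, and in TEPA+hypoxia against hypoxia 1 alone 0 of 10 were called in edgeR's quasi-likelihood test. TFAM, which packages and transcribes mitochondrial DNA, had 73.8, 73.3 and 87.8 CPM in TEPA+hypoxia and 74.4, 72.04 and 81.1 in TEPA. Hypoxia 1 had 73.05 CPM, hypoxia 2 and 3 had 42.3 and 41.2, and control had 82.2, 88.1 and 76.7. It was low in hypoxia 2 and 3 only, and its log2 fold change in hypoxia against control was -0.66 (SE 0.19, edgeR adjusted p = 0.0147) with all libraries and -0.17 (SE 0.12, edgeR adjusted p = 0.417) with hypoxia 1 alone. NRF1 itself had a log2 fold change of -0.38 (SE 0.15, edgeR adjusted p = 0.0429) in hypoxia against control, and LRPPRC, which stabilises mitochondrial messenger RNA, one of -0.60 (SE 0.14, edgeR adjusted p = 0.00645). For hypoxia 1 alone neither was called, with -0.22 (SE 0.15) for NRF1 and -0.32 (SE 0.12) for LRPPRC. PPARGC1A, a coactivator of mitochondrial biogenesis, was listed at 0 in all libraries. CYCS, cytochrome c itself, had 133, 129 and 135 CPM in TEPA+hypoxia, 128, 131 and 143 in TEPA, 158 in hypoxia 1, 156 and 133 in hypoxia 2 and 3, and 148, 162 and 144 in control, with the TEPA+hypoxia and TEPA values below all control values and the hypoxia values overlapping them, and a log2 fold change in hypoxia against control of -0.02 (SE 0.09, edgeR adjusted p = 0.861). NDUFA4L2, a relative of NDUFA4 induced by low oxygen in other cells, had 1.05, 1.42 and 1.43 CPM in TEPA+hypoxia and 1.37, 1.79 and 1.01 in TEPA. Hypoxia 1 had 0.971 CPM, hypoxia 2 and 3 had 4.19 and 3.65, and control had 1.47, 1.25 and 1.39. It was low in all libraries and above the rest only in hypoxia 2 and 3, with a log2 fold change of 1.07 (SE 0.43, edgeR adjusted p = 0.0499) in hypoxia against control and -0.50 (SE 0.43, edgeR adjusted p = 0.502) with hypoxia 1 alone.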

How the data were processed

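The study sequenced poly(A) RNA from EA.hy926 cells in 12 libraries of 4 groups. Per the submitters' processing notes, reads were aligned with HISAT2 2.1.0 to GRCh38, and DESeq was among their tools. The sources used here give no read counter, gene annotation or strand setting. The authors deposited whole-number counts per gene symbol, not normalized. No column lacked a sample.

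From these counts, low-count genes were dropped by filterByExpr in edgeR 4.0.16 (R 4.3.3, limma 3.58.1), which left 14447 genes holding 99.9% of counts. Libraries were scaled by TMM, all 12 were fitted with 1 mean per group, and each contrast was tested by the two-sided quasi-likelihood F-test, with calls made where the p-value after Benjamini-Hochberg adjustment over all genes tested was under 0.05. Read-through and duplicate genes (UQCRHL and UQCRH, SDHA, ATP5J2, NDUFC2) may share reads with a copy. A count of 3 in a library, the floor, equals 0.118 to 0.267 CPM and covers counting error only.

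Alternatives were other scalings (relative log expression, upper quartile), no filter, a minimum of 1 CPM in 3 libraries, DESeq2 1.42.0, a replicate block, each pair of groups fitted alone, each library left out, hypoxia 2 and 3 left out, and a correction for transcript length and GC content. For the correction, each library's deviation from the gene's mean log2 CPM was fitted by splines. There was a spline for GC content and a spline for log2 length, each with 4 degrees of freedom. The fitted values entered the count model as an offset. The correction without hypoxia 2 and 3 was chosen after seeing the data. Lengths, GC content and positions come from GENCODE 29 on GRCh38, which the authors may not have used for counting. For each gene, length and GC content are those of a single transcript. It was the transcript of median length among those with a RefSeq match, where there were any. Other transcripts were not tried, so the corrected values depend on this choice. The test was checked on simulated data with a dispersion of 0.0085, that of the fit without hypoxia 2 and 3. The simulation held no outlying libraries. It does not cover the wider spread of the fit with all 12 libraries, where the common dispersion was 0.0339.

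The members, lists and tests were chosen with earlier results of these data known. Members named with values were those fixed by role, the 3 highest and 3 lowest log2 fold changes of each contrast and up to 3 with the smallest p. NDUFB4 and COX6A1 were added after their values were seen. A gene that the rule names is not reported here. Genes outside the 86 come from lists of assembly factors, regulators, linked genes, the tricarboxylic acid cycle, general mitochondrial genes and ribosomal proteins. Fibroblast markers summed to 45.8 to 108 CPM and leukocyte markers to 149 to 205 CPM, with DCN and PTPRC at 0. The assembly factors of complex II (3 of 3 higher, 0 lower), complex III (3 of 6 higher, 1 lower) and complex V (0 of 2), and the linked genes (10 of 15 higher, 1 lower), are counted in hypoxia against control by edgeR. Figures used Python 3.11.15 and matplotlib 3.10.9.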

Additional observations from a re-analysis of the deposited data

Results flagged for a closer look

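Results are listed here because the response to low oxygen differed with and without the chelator by the interaction test. With all libraries, edgeR's quasi-likelihood test called this difference for 72 of the 79 genes at a Benjamini-Hochberg adjusted p under 0.05 (21.5% of all genes lower, 17.3% higher), and without hypoxia 2 and 3 it called 0, with 58 lower at an unadjusted p under 0.05. Among the genes named by the rule, the interaction on the log2 scale was -2.53 for ATP5I, -2.41 for UQCRHL, which rests on few counts, -2.35 for ATP5D, -2.09 for NDUFB1, -1.94 for NDUFA1, -1.65 for NDUFC1 and 0.70 for NDUFS1. Without hypoxia 2 and 3 the values were -1.21 for ATP5I, -1.81 for UQCRHL, -0.87 for ATP5D, -1.05 for NDUFB1, -1.03 for NDUFA1, -0.96 for NDUFC1 and 0.29 for NDUFS1, and none of these was called. What sets hypoxia 2 and 3 apart was not tested.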

How the results depend on the processing

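Scaling, filters and DESeq2 moved the counts little. In hypoxia against control, 71 genes were called higher and 1 lower. The higher count was 0 without hypoxia 2 and 3, 1 with that and the length and GC correction, and 0 when only the 2 groups were fitted. The lower count was 2 with upper-quartile scaling, 2 with DESeq2, 4 with the correction, 4 with the correction and replicate block, and 0 in the other settings just named. In TEPA+hypoxia against TEPA, 0 were called lower, against 1 without hypoxia 2 and 3, 28 with that and the correction, and 7 with only the 2 groups. In TEPA+hypoxia against hypoxia, 73 lower calls became 56 without hypoxia 2 and 3 and 45 with that and the correction, and 1 higher call became 0, 0 with the correction too, 0 with only the 2 groups, and 2 with the correction and replicate block. For the interaction, 71 lower calls became 0 without hypoxia 2 and 3, 6 with that and the correction, and 44 with the correction and replicate block, and the 1 higher call became 0 in these and with the correction alone. Leaving out 1 library at a time gave 63 to 73 higher and 1 to 5 lower calls in hypoxia against control, 1 to 2 higher and 72 to 73 lower in TEPA+hypoxia against hypoxia, and 0 to 2 higher and 0 to 72 lower for the interaction, with 0 lower without control 1, control 2, hypoxia 3, TEPA 2 or TEPA+hypoxia 3. TEPA+hypoxia against TEPA and TEPA against control had 0 calls in each.

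Values that turned sign in hypoxia against control were CYC1 at -0.13 with the correction, -0.13 with the correction and replicate block and -0.11 with the correction without hypoxia 2 and 3, and, in that last setting, NDUFV1 at -0.026, UQCRC1 at -0.0011 and ATP5G3 at -0.042. The cause was not tested. With the correction and all libraries, rho with GC content across the 79 genes was -0.35 in hypoxia against control, against 0.50 before it. Same-numbered libraries did not deviate together (correlations of -0.34 to 0.29), so the numbers were not taken as pairs. With the replicate block alone, hypoxia against control had 70 higher and 1 lower calls, TEPA+hypoxia against hypoxia 1 and 72, and the interaction 1 and 67. The interaction could not be refitted with only 2 groups. With 3 libraries a group, 2 of them apart in hypoxia, the size of the hypoxia response is the least certain value here.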

Other observations

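The subunits encoded in mitochondrial DNA did not follow the nuclear ones. Their summed CPM were 35061, 33984 and 40707 in TEPA+hypoxia, 38203, 39512 and 38876 in TEPA, 34157 in hypoxia 1, 35927 and 33950.5 in hypoxia 2 and 3, and 42282, 43811 and 37407 in control. The hypoxia sums lay below every control and TEPA sum, and TEPA+hypoxia 1 and 2 lay within the range of the hypoxia sums. In the sum hypoxia 2 and 3 did not stand apart from hypoxia 1, but in single genes such as ND5 and ND3 they did. Of the 13 mitochondrial genes, 1 was called higher and 8 lower in hypoxia than in control, with a median log2 fold change of -0.33 and edgeR's quasi-likelihood test as above (29.4% and 27.8% of all genes). With hypoxia 1 alone, 0 were called higher and 1 lower, with a median of -0.37. ND5, a membrane subunit of complex I, had 1705, 1633 and 2255 CPM in TEPA+hypoxia, 1815, 1843 and 1832 in TEPA, 1377 in hypoxia 1, 849.9 and 861 in hypoxia 2 and 3, and 2075, 2398 and 1715 in control, lowest in hypoxia 2 and 3, and its log2 fold change in hypoxia against control was -1.002 (SE 0.20, edgeR adjusted p = 0.00601), or -0.58 (SE 0.17, edgeR adjusted p = 0.0984) with hypoxia 1 alone. ND3, a small subunit of the same complex, had 113, 105 and 113 CPM in TEPA+hypoxia, 183, 145 and 139 in TEPA, 188 in hypoxia 1, 314 and 230.2 in hypoxia 2 and 3, and 141, 146 and 148 in control, highest in hypoxia 2 and 3 and lowest in TEPA+hypoxia. The log2 fold change of ND3 was 0.75 (SE 0.17, edgeR adjusted p = 0.00617) in hypoxia against control, 0.37 (SE 0.12, edgeR adjusted p = 0.124) in hypoxia 1 against control and -0.76 (SE 0.12, edgeR adjusted p = 0.0178) in TEPA+hypoxia against hypoxia 1 alone. The ratio of the nuclear sum to the mitochondrial sum was 0.184, 0.187 and 0.132 in TEPA+hypoxia, 0.184, 0.186 and 0.179 in TEPA, 0.249 in hypoxia 1, 0.505 and 0.441 in hypoxia 2 and 3, and 0.168, 0.150 and 0.207 in control, so that each hypoxia library was above every other library. Poly(A) selection captures mitochondrial transcripts by their own tails, and its part in these values was not tested.

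Short genes tied to the ATP synthase moved with the nuclear subunits. USMG5, which helps join ATP synthase dimers, had 20.8, 22.8 and 20.5 CPM in TEPA+hypoxia, 22.8, 24.5 and 24.98 in TEPA, 38.2 in hypoxia 1, 83.5 and 61.8 in hypoxia 2 and 3, and 22.1, 21.6 and 26.1 in control. All TEPA+hypoxia values were below the hypoxia values, with a log2 fold change of -0.83 (SE 0.14, edgeR adjusted p = 0.0178) against hypoxia 1 alone. ATPIF1, the inhibitor of the reverse reaction of the ATP synthase, had 34.8, 31.3 and 29.8 CPM in TEPA+hypoxia, 31.1, 32.6 and 30.97 in TEPA, 43.3 in hypoxia 1, 79.7 and 67.5 in hypoxia 2 and 3, and 33.1, 28.9 and 36.3 in control, highest in hypoxia 2 and 3, with a log2 fold change in hypoxia against control of 0.95 (SE 0.19, edgeR adjusted p = 0.00601), or 0.40 (SE 0.14, edgeR adjusted p = 0.132) with hypoxia 1 alone.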
